A study of Mus musculus with 8 samples.

Results

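The genes described here encode nuclear subunits of respiratory complex II, complex III with its electron carrier cytochrome c, and the mitochondrial ATP synthase, in the ventricles of the neonatal mouse heart. The list holds 30 genes, matched by the symbol in the gene column of a table of 37982 genes, with 4 genes of complex II, 10 of complex III with cytochrome c and 16 of the ATP synthase. Of the 30 genes, 26 were tested in every comparison. Atp5a1, Atp5b and Atp5o, which encode the alpha, beta and OSCP subunits of the synthase, were listed at 0 because the authors' software marked too many fragments at their loci. Atp5g2 was listed near 0 and was not tested.

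Ventricles were taken at postnatal day 7 from C57BL/6 mice, with the atria removed, and measured by stranded total RNA sequencing. The groups were wild type (2 samples), a double mutant named mkmy (3 samples) and a triple mutant named mkmyn (3 samples). The study is known to have used missense alleles of Mkl2, a coactivator of serum response factor, and Myh7, a cardiac myosin heavy chain, in the double mutant. The triple mutant carries an Nkx2-5 allele as well, in a cardiac transcription factor; both mutant groups thus share the first pair of alleles, and the labels give neither zygosity nor sex. The table lists 1 FPKM value (fragments per kilobase of transcript, scaled to the mapped fragments) per gene and group, so no value per sample can be shown and the spread between samples is known only through the authors' test. That test was run with Cuffdiff, and q stands for its p-value after Benjamini-Hochberg adjustment over all genes and all 3 comparisons. The labels do not say whether samples are separate litters, pools or repeat libraries, so p-values may cover technical spread only. Total depth is not kept in FPKM and is unknown here.

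Complex II oxidises succinate to fumarate and passes the electrons to coenzyme Q, so it belongs to the citric acid cycle and to the respiratory chain. Complex III moves electrons from reduced coenzyme Q to cytochrome c and pumps protons across the inner mitochondrial membrane. The ATP synthase lets the protons flow back through its membrane rotor and makes ATP in its catalytic head. The heart relies on this chain for most of its ATP, and its mitochondria expand and mature in the first weeks after birth.

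The results turn on 4 genes, Uqcr10, Uqcr11, Uqcrb and Atp5j2, which were called higher in the double mutant than in wild type at q under 0.05. Promoters are shown for the 3 of them with an entry in the RefSeq promoter table (GRCm38.p6). They are given because these genes were called, and regulators of respiratory genes have well described binding motifs. Whether a regulator is shared by these genes was not tested. Each run covers 200 bases before the transcript start and 10 after it, 5′ to 3′ on the gene's strand, which is the minus strand for all 3. Uqcr10 lies at chr11:4704335-4704544, Uqcr11 at chr10:80406812-80407021 and Atp5j2 at chr5:145191532-145191741. Capitals mark matches to the motifs named in the next paragraph.
Uqcr10: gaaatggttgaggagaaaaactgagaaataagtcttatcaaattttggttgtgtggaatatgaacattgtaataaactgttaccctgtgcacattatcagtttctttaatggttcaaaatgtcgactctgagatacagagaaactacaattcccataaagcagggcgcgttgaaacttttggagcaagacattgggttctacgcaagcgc
Uqcr11: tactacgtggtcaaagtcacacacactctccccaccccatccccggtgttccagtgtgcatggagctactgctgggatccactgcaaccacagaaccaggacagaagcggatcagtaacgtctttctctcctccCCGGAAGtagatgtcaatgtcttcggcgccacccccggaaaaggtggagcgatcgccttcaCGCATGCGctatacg
Atp5j2: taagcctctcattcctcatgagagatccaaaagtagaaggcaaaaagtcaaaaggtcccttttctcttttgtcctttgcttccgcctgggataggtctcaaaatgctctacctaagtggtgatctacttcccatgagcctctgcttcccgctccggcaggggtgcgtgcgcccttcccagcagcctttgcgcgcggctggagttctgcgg

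Each of 3 motifs was searched on both strands, in the table's 300 bases around each start (250 before and 50 after). GCATGCG is the core of the NRF1 motif, CCGGAAG that of GABPA (also called NRF2) and AAGGTCA that of the estrogen-related receptors. The Uqcr11 run holds CCGGAAG starting 66 bases before the start. It also holds GCATGCG on both strands, as overlapping matches that begin 5 and 4 bases before the start and reach across it. Neither the Uqcr10 nor the Atp5j2 run holds any of the 3, which says only that these letters are not in this window. The GC content of the runs was 38.1% for Uqcr10, 56.7% for Uqcr11 and 53.8% for Atp5j2. Of the 30 genes, 24 had an entry. GCATGCG was found in 8 of these 24 (33.3%), against 4.01% of all 27025 genes with an entry. Among the 9185 of them tested in double mutant against wild type the share was 7.36%. CCGGAAG was found in 9 (37.5%), against 9.93% and 20.7%. AAGGTCA was found in 5 (20.8%), against 5.38% and 3.83%. A match is a description of the letters, and binding was not measured.

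RNA levels of the subunits spread widely within each complex, although the proteins are assembled in fixed proportions. In wild type the 26 tested genes ranged from 4.09 FPKM for Atp5l, the g subunit of the synthase, to 642 FPKM for Uqcrq, a small subunit of complex III. Of the 26, 16 were at 100 FPKM or more, and 4 were under 20: Atp5l, Atp5k, Atp5s and Atp5e. FPKM is a level per transcript length, so these levels can be set side by side, within the limits on similar copies and shared loci given further on. The Rieske iron-sulphur protein Uqcrfs1 was at 522 FPKM in wild type, while the core protein Uqcrc1 of the same complex was at 28.5 FPKM. The highest and the lowest gene of complex III, Uqcrq and Uqcrc1, thus differed 22.5-fold. In complex II, the iron-sulphur subunit Sdhb stood at 25.2 FPKM beside 278 for the flavoprotein Sdha, 224 for Sdhc and 318 for Sdhd, which both anchor the complex in the membrane.

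**Figure D1:**
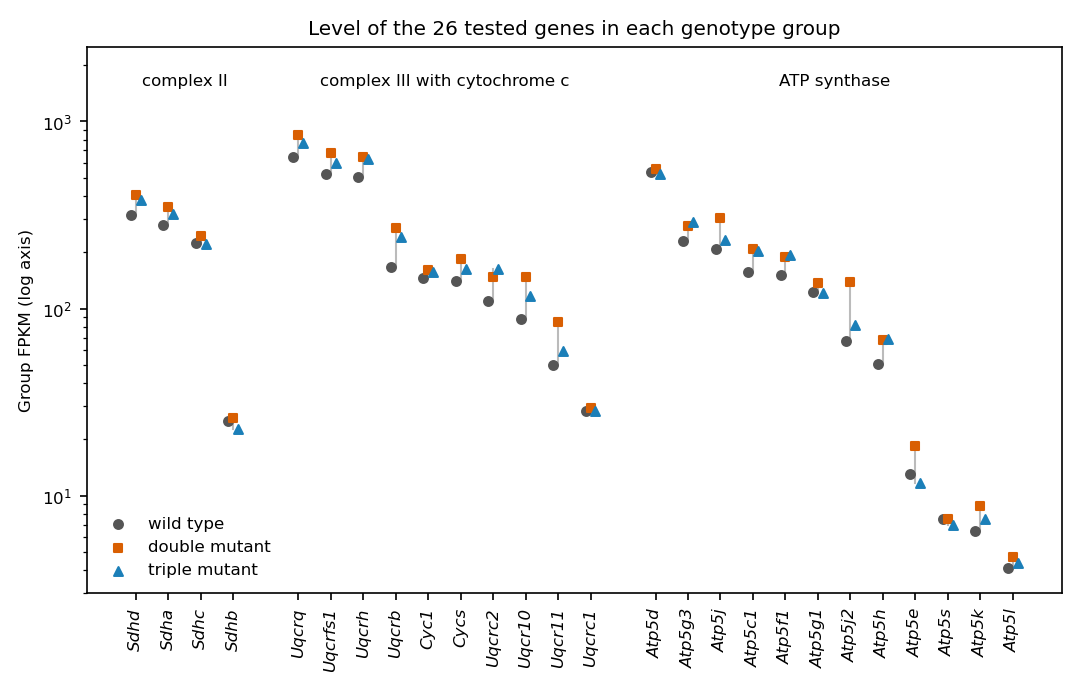
FPKM of the tested subunit genes (log axis) in wild type, double mutant and triple mutant ventricles, 1 point per group and gene, ordered by complex. No error bar can be drawn, since the table lists 1 value per group; in wild type the points run from 4.09 FPKM (Atp5l) to 642 FPKM (Uqcrq), and the double mutant is highest for 21 of 26 genes.

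The comparison of the double mutant with wild type is implied by the groups; the series' design text does not name it. Among the 26 tested genes 4 rose in the double mutant and none fell, with Cuffdiff's q under 0.05 in the authors' deposited table. Over all 13034 genes tested in this comparison, 1.89% were called higher and 0.767% lower. Of the 4 genes, 3 are small subunits of complex III and 1 is a subunit of the synthase's membrane part. Of the 26 log2 fold changes 25 were positive, against 49.6% of all tested genes. Their median was 0.37, against -0.003 over all tested genes. A total of 13 genes, those 4 included, had an unadjusted p under 0.05 by Cuffdiff. The share of all tested genes with such a p was not computed, here or for later counts of this kind. These counts therefore have no background to be read against. The calls depend on how Cuffdiff formed its p-values: when its deposited statistic was read as a normal deviate, an alternative added after seeing the data, none of the 4 was called.

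Atp5j2, the f subunit of the ATP synthase, showed the largest difference. Its group values in the authors' deposited table were 67.4 FPKM (wild type), 139 (double mutant) and 81.9 (triple mutant), so the double mutant stood apart from both other groups. Against wild type the double mutant was 2.06-fold higher (log2 fold change 1.05, standard error 0.282, q = 0.0066 by Cuffdiff). The standard error, here and below, is the one implied by the deposited statistic, as the log2 fold change divided by it. The q of 0.0066 is the lowest value the table holds. The gene (ENSMUSG00000038690) is listed at chr5:145944567-145952931 in mm9.

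Uqcr10 and Uqcr11 encode small membrane-spanning subunits of complex III. Uqcr10 (ENSMUSG00000059534, chr11:4601976-4604345 in mm9) was at 87.9 FPKM for wild type, 147 for the double and 117 for the triple mutant. Its 1.67-fold rise in the double mutant had a log2 fold change of 0.74 with standard error 0.270 and Cuffdiff's q = 0.0066 in the authors' deposited table. Uqcr11 (ENSMUSG00000020163, chr10:79865742-79869575 in mm9) was at 49.9, 84.9 and 59.6 FPKM in the same order of groups. It rose 1.70-fold in the double mutant in the authors' deposited table (log2 fold change 0.77, standard error 0.322, Cuffdiff's q = 0.0114). For both genes the triple mutant lay between the other groups.

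Uqcrb, which encodes the subunit of complex III known as the ubiquinone-binding protein, was at 166 FPKM for wild type, 269.7 for the double and 241 for the triple mutant. It rose 1.62-fold in the double mutant in the authors' deposited table (log2 fold change 0.70, standard error 0.311, Cuffdiff's q = 0.015). Its locus (ENSMUSG00000021520, chr13:67001553-67099337 in mm9) is listed with the same coordinates as Ptdss1, Mterfd1 and Gm10767, so the counting could have split or joined their reads. In addition, 3 near-identical copies of Uqcrb exist in GENCODE M21 (at least 95% identity over at least 50% of the transcript). The copies summed to 17.6, 28.5 and 25.4 FPKM in wild type, double and triple mutant, the same order as Uqcrb itself. Its value is uncertain for both reasons, whose part in the result was not tested.

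The other complex III genes are given as values, since none passed the threshold in the double mutant. Uqcrq and Uqcrh, the remaining small subunits, had log2 fold changes of 0.39 (Cuffdiff's q = 0.172) and 0.36 (Cuffdiff's q = 0.163) in the authors' deposited table. As levels, Uqcrq was at 642, 842 and 771 FPKM and Uqcrh at 506, 649 and 627 FPKM (wild type, double, triple mutant), again with wild type lowest. The 4 larger subunits spread from near 0 to that level, with 0.42 for Uqcrc2, 0.38 for Uqcrfs1, 0.14 for cytochrome c1 (Cyc1) and 0.04 for Uqcrc1. Uqcrfs1 was at 522, 678 and 602 FPKM, whereas Uqcrc1 stayed between 28.4 and 29.4 FPKM in all 3 groups. Grouped this way after the values were seen, the 5 small subunits had a median log2 fold change of 0.70 and the 4 core subunits 0.26, and that difference has no test. Cytochrome c (Cycs), the soluble carrier between complexes III and IV, was at 141 FPKM for wild type, 183 for the double and 163 for the triple mutant (double mutant against wild type 0.38, Cuffdiff's q = 0.172 in the authors' deposited table).

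The 4 genes of complex II had the lowest median log2 fold change of the 3 complexes, 0.22, against 0.38 for complex III with cytochrome c and 0.36 for the synthase. None of the 4 was called. Sdhd had a log2 fold change of 0.34 (Cuffdiff's q = 0.210) and Sdha of 0.32 (standard error 0.554, Cuffdiff's q = 0.728) in the authors' deposited table. Sdhc was at 0.12 and Sdhb at 0.05. As levels, Sdhd was at 318 FPKM for wild type, 404 for the double and 379 for the triple mutant, and Sdha at 278, 348 and 319 FPKM in the same order. For Sdhc (224, 244 and 221 FPKM) and Sdhb (25.2, 25.97 and 22.6 FPKM) the triple mutant was the lowest group, so the order of the groups differed within the complex. With Sdha left out, whose locus is shared with another gene, the complex II median was 0.122. Differences between complexes were not tested.

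The remaining 11 tested genes of the ATP synthase had log2 fold changes between -0.01 and 0.53 in the double mutant, and none was called. In the catalytic head, the gamma subunit Atp5c1 had 0.40 (standard error 0.240), and its q of 0.118 by Cuffdiff in the authors' deposited table was the nearest outside the threshold. The delta subunit Atp5d, at 535 FPKM the most abundant synthase gene tested in wild type, had 0.07. The epsilon subunit Atp5e had 0.49 with a standard error of 0.567. In the stalk, Atp5j (subunit F6) had 0.53, Atp5h (subunit d) 0.42 and Atp5f1 (subunit b) 0.32. The small membrane subunits Atp5k (e) and Atp5l (g) had 0.45 and 0.20, and Atp5s, named after coupling factor B, had -0.01. Atp5j was at 209 FPKM for wild type, 303 for the double and 234 for the triple mutant, the same order as Atp5j2. Atp5c1 (157, 208 and 203 FPKM) and Atp5f1 (152, 189 and 192 FPKM) had nearly equal levels in both mutants, both above wild type.

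**Figure D2:**
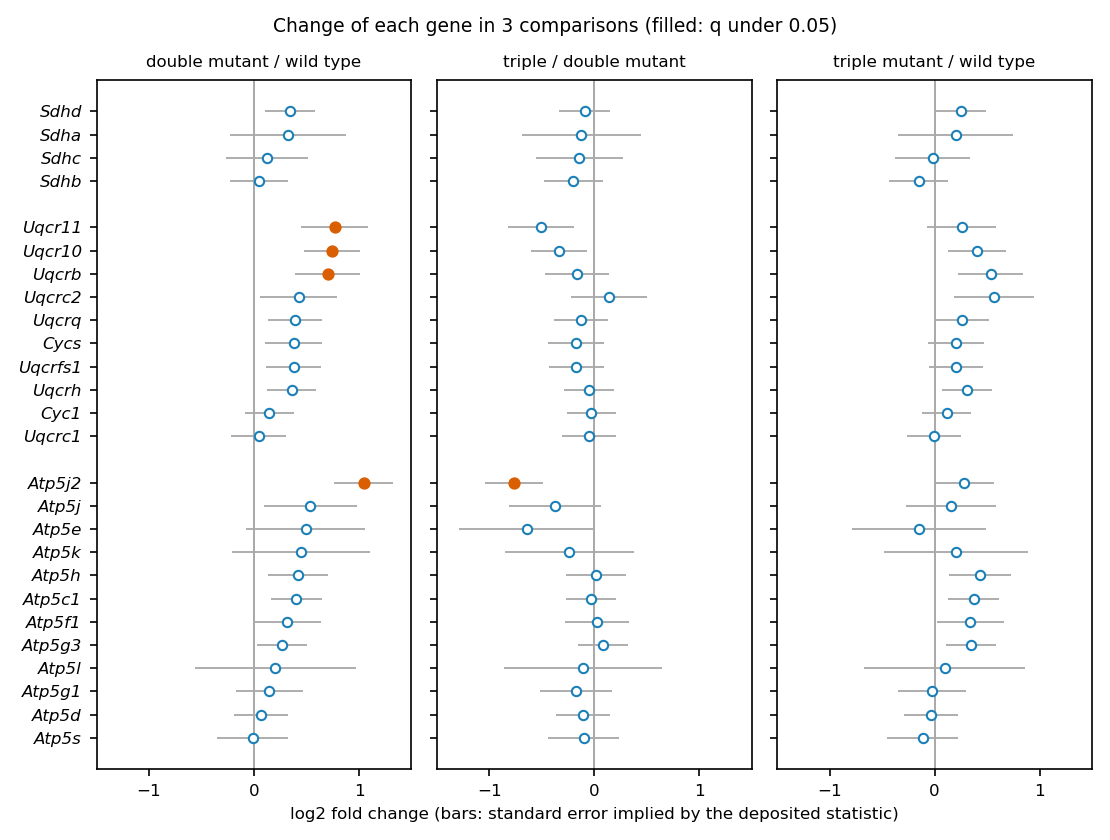
Log2 fold change of each tested gene in each of the 3 comparisons, with bars of 1 implied standard error and filled points where Cuffdiff's q is under 0.05. In the double mutant against wild type 25 of 26 points lie above 0 and 4 are filled; in the triple against the double mutant 22 lie below 0 and only Atp5j2 is filled; in the triple mutant against wild type none is filled.

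The triple mutant was set against the double mutant to find genes whose expression depends on the Nkx2-5 modifier. Atp5j2 was the only one of the 26 genes called, and it fell in the triple mutant. Its level of 81.9 FPKM in the triple mutant was 1.70-fold below the 139 FPKM of the double mutant (log2 fold change -0.77, standard error 0.272, Cuffdiff's q = 0.0066 in the authors' deposited table). With the statistic read as a normal deviate this call was lost as well. Over all 12786 genes tested in this comparison 0.547% were called lower and 0.704% higher.

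Most of the other genes had small negative values. Of the 26 log2 fold changes 22 were negative and 4 positive, with a median of -0.12 against -0.001 over all tested genes, and 3 genes had an unadjusted p under 0.05. Set to an equal sum of FPKM in both groups, the median was -0.0752. Genes listed at 0 for too many fragments add nothing to these sums, which are therefore no measure of depth. The largest after Atp5j2 were Atp5e at -0.64, from 18.3 to 11.7 FPKM (standard error 0.643, Cuffdiff's q = 0.510), and Uqcr11 at -0.51, from 84.9 to 59.6 FPKM (standard error 0.315, Cuffdiff's q = 0.134), both in the authors' deposited table. Uqcr10 had -0.33 (standard error 0.264, Cuffdiff's q = 0.306) and Uqcrb -0.16 (Cuffdiff's q = 0.821) in the authors' deposited table. The 4 positive values were Uqcrc2 at 0.14, Atp5g3 at 0.08, and Atp5f1 and Atp5h at 0.02 each. By complex the medians were -0.13 for complex II, -0.15 for complex III with cytochrome c and -0.11 for the synthase.

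The triple mutant was set against wild type to find genes that differ in the diseased state. None of the 26 genes was called by Cuffdiff at q under 0.05, and 8 had an unadjusted p under 0.05; with the statistic read as a normal deviate none was called either. The threshold was passed by 1.16% of the 12986 tested genes as higher and by 0.362% as lower. The log2 fold changes were positive for 19 genes and negative for 7, with a median of 0.21 against -0.003 over all tested genes. The largest was Uqcrc2, the second core protein of complex III, with 109.8 FPKM for wild type, 147 for the double and 163 for the triple mutant (triple against wild type 0.57, standard error 0.377, Cuffdiff's q = 0.163 in the authors' deposited table). Its locus is shared with another gene. Uqcrb followed at 0.54 (standard error 0.311, Cuffdiff's q = 0.0974 in the authors' deposited table), which passes only a threshold of 0.1. Atp5h, at 50.8, 67.8 and 68.6 FPKM in wild type, double and triple mutant, had 0.43 (standard error 0.293, Cuffdiff's q = 0.185 in the authors' deposited table).

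The genes called in the double mutant had smaller values here. They were chosen by their rise in the double mutant over the same wild type values, a choice that by itself favours smaller values here. Uqcr10 had 0.41 (Cuffdiff's q = 0.190), Atp5j2 0.28 (standard error 0.286, Cuffdiff's q = 0.519) and Uqcr11 0.26 (Cuffdiff's q = 0.668) in the authors' deposited table. For Atp5j2 the drop from double to triple mutant was itself called; for Uqcr10, Uqcr11 and Uqcrb it was not. The negative values were Sdhb and Atp5e at -0.15, Atp5s at -0.11, Atp5d at -0.04, Atp5g1 at -0.03, Sdhc at -0.02 and Uqcrc1 at -0.01. The complex II median of 0.09 became -0.0191 when Sdha was left out. Sdha (0.20) and Sdhd (0.25) were positive and Sdhc and Sdhb negative, so leaving out either positive gene turns the sign. Complex III with cytochrome c had a median of 0.26 and the synthase 0.18.

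Across the 3 groups the commonest order was double mutant highest, triple mutant between and wild type lowest. It held for 15 of the 26 genes (57.7%), against 21.3% of the 12399 genes tested in every comparison. The double mutant was highest for 21 genes (80.8%, against 34.1%). In 6 of these the triple mutant was lowest. The triple mutant was highest for 4 genes, Uqcrc2, Atp5g3, Atp5f1 and Atp5h, and wild type was highest for Atp5s alone (7.53, 7.48 and 6.97 FPKM in wild type, double and triple mutant). The order comes from 1 value per group, and the 3 comparisons share these groups, so each one's difference is fixed by the other two.

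Atp5g1, Atp5g2 and Atp5g3 encode the same mature c subunit of the membrane rotor behind different import sequences. Atp5g3 was at 229 FPKM for wild type, 275 for the double and 292 for the triple mutant, with log2 fold changes against wild type of 0.27 (standard error 0.238, Cuffdiff's q = 0.413) and 0.35 (standard error 0.238, Cuffdiff's q = 0.199) in the authors' deposited table. Atp5g1 was at 123, 136 and 121 FPKM in the same order, with 0.15 (standard error 0.316, Cuffdiff's q = 0.866) and -0.03 (standard error 0.326, Cuffdiff's q = 0.985) in the authors' deposited table. Atp5g3 was thus 1.86-fold above Atp5g1 in wild type and 2.41-fold in the triple mutant, a ratio with no test. Atp5g2 was listed at 0, 0.295 and 0 FPKM. It has 2 copies in GENCODE M21 that are identical over its whole transcript and are listed at 0 too, so its reads could have been lost among them.

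Several low values sit on genes with copies. Of the 26 tested genes 5 have near-identical copies: Uqcrb, Atp5c1, Atp5h, Atp5k and Atp5l. Atp5l was at 4.09, 4.71 and 4.37 FPKM in wild type, double and triple mutant, while Gm10221, identical to it over 56.8% of the transcript, was at 14.0, 18.8 and 15.5 FPKM. The copy was therefore listed above the gene in every group. Gm10250, 98.97% identical to Atp5h over 77.6% of the transcript, was at 11.4, 5.55 and 9.48 FPKM in wild type, double and triple mutant. It was thus lower in both mutants than in wild type, where Atp5h was higher, and its part in the Atp5h values was not tested. Loci shared with another gene hold 8 of the tested genes: Sdha, Uqcrc2, Uqcrb, Uqcrh, Atp5c1, Atp5d, Atp5f1 and Atp5j. Atp5j2, Uqcr10 and Uqcr11 belong to neither set.

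Many of these subunits have short transcripts, and short transcripts as a class had positive median log2 fold changes in the double mutant. The median transcript length of the 26 tested genes was 1036.5 bases in GENCODE M21, and 13 of them fell in the shortest of 8 equally filled length bins. In the double mutant against wild type the median log2 fold change of all tested genes went from 0.08 and 0.11 in the 2 shortest bins to -0.09 in the longest. Centred on the median of their own bin, the 26 genes had a median of 0.29 in place of 0.37, against -0.11 in place of -0.12 between triple and double mutant and 0.17 in place of 0.21 between triple mutant and wild type. Among the 26 genes the log2 fold change of double mutant against wild type correlated with log2 length at Pearson's r -0.49 and Spearman's rho -0.55, a description across genes of the same libraries. RNA quality per sample is not given, and its part in this pattern was not tested.

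**Figure D3:**
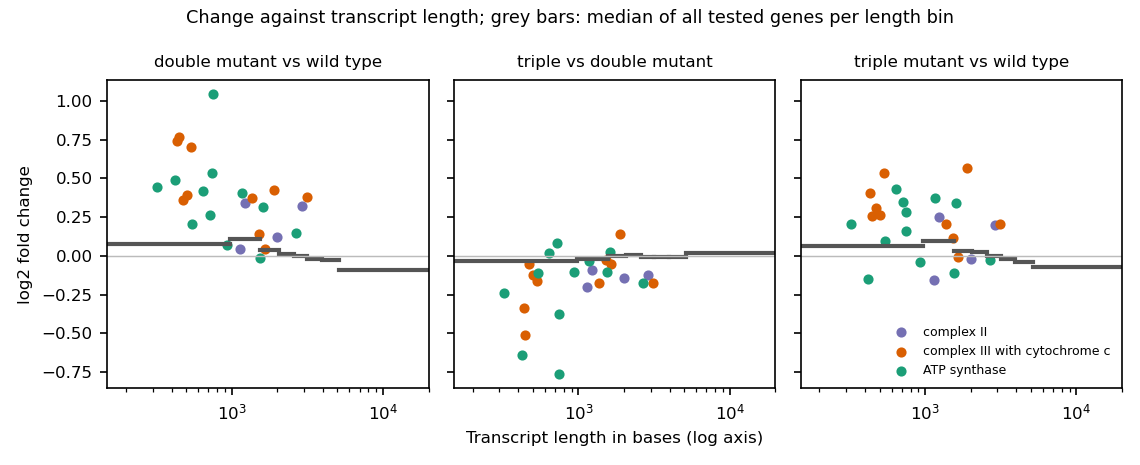
Log2 fold change by transcript length (log axis, bases) in the 3 comparisons, 1 panel each; points are the tested subunit genes by complex, and horizontal bars are medians of all tested genes in 8 length bins, the bars of the shortest and the longest bin being cut at the panel's edges. In the double mutant against wild type the bars go from 0.08 and 0.11 at the short end to -0.09 at the long end, and 13 of the 26 genes lie in the shortest bin.

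Genes that build, feed or regulate the 3 complexes formed a second list of 42, of which 35 were tested. In the double mutant 29 of the 35 had positive log2 fold changes against wild type, with a median of 0.17, and 3 rose (8.57%). Over all genes tested in this comparison 49.6% were positive and 1.89% were called higher. Ckmt2, the mitochondrial creatine kinase of muscle, which passes the energy of new ATP to creatine, was at 90.03 FPKM for wild type, 174 for the double and 128 for the triple mutant. It rose 1.94-fold in the double mutant and 1.42-fold in the triple mutant against wild type (Cuffdiff's q = 0.0066 for both in the authors' deposited table). Atpif1, the inhibitor that stops the synthase from running backwards, was at 402, 707.9 and 686 FPKM. It rose 1.76-fold in the double mutant and 1.71-fold in the triple mutant (Cuffdiff's q = 0.0066 for both in the authors' deposited table). Sdhaf1, an assembly factor for the iron-sulphur subunit of complex II, rose 1.47-fold in the double mutant (47.4 to 69.5 FPKM, Cuffdiff's q = 0.0321 in the authors' deposited table) and was at 64.5 FPKM in the triple mutant. All 3 genes lie on loci shared with another gene.

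Between triple and double mutant none of the 35 was called at Cuffdiff's q under 0.05, and 4 had an unadjusted p under 0.05. Over all genes tested in this comparison 0.704% were called higher and 0.547% lower, so few calls could be looked for. The lowest q, 0.0575 by Cuffdiff in the authors' deposited table, belonged to Ckmt2 and passes only a threshold of 0.1. The median log2 fold change was -0.05. Against wild type the triple mutant had a median of 0.16 and the calls for Atpif1 and Ckmt2 given above. Those calls made up 5.71% of the 35, against 1.16% called higher over all tested genes. The 13 genes of coenzyme Q synthesis, which make the carrier that feeds complex III, had medians of 0.17, -0.21 and 0.10 in double against wild type, triple against double and triple against wild type, with none called. Among the genes of the list with an estimate, the most abundant in wild type were the phosphate carrier Slc25a3 (636, 712 and 694 FPKM in wild type, double and triple mutant) and the outer membrane channel Vdac2 (581, 705 and 703 FPKM). The mitochondrially encoded partners mt-Cytb, mt-Atp6 and mt-Atp8, and the ATP carrier Slc25a4, were listed at 0 because too many fragments were marked at their loci. Their levels could not be ranked.

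**Figure D4:**
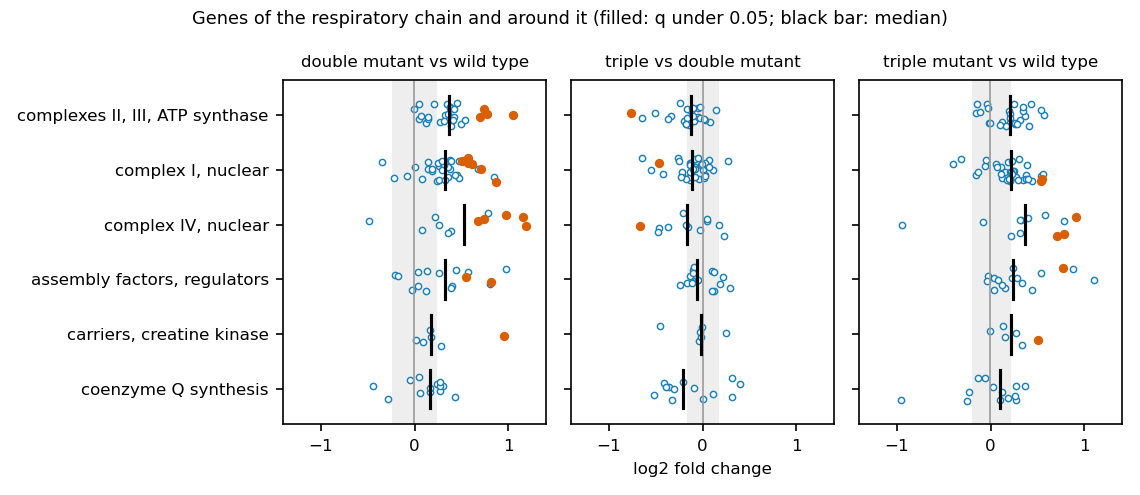
Log2 fold changes by gene list in the 3 comparisons, 1 point per tested gene (filled where Cuffdiff's q is under 0.05), with a black bar at each list's median and a grey band and line at the quartiles and median of all tested genes. In the double mutant against wild type the medians run from 0.17 (coenzyme Q synthesis; carriers and creatine kinase) to 0.53 (complex IV), with 0.37 for the 26 genes described here.

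Nuclear subunits of complexes I and IV were set beside these genes. In the double mutant against wild type the median log2 fold change was 0.32 over 36 tested genes of complex I, with 6 called higher (Ndufa10, Ndufa12, Ndufb9, Ndufc2, Ndufs4 and Ndufs8). It was 0.53 over 12 tested genes of complex IV, with 5 called higher (Cox5a, Cox5b, Cox6b1, Cox8b and Ndufa4). The calls made up 16.7% of complex I and 41.7% of complex IV, against 15.4% of the 26 genes and 1.89% of all tested genes. In the triple against the double mutant Ndufc2 and Cox8b fell, as Atp5j2 did, where 0.547% of all tested genes were called lower. In the triple mutant against wild type Ndufs4 and Ndufa10 of complex I and Cox5a, Cox6b1 and Ndufa4 of complex IV rose, while none of the 26 genes described here was called. The calls against wild type made up 5.56% of complex I and 25% of complex IV, against 1.16% called higher over all tested genes. The contrast between complexes was not tested.

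Markers of the tissue could be read only in part. Of 10 cardiomyocyte markers only Csrp3 was tested (73.9, 88.3 and 99.3 FPKM in wild type, double and triple mutant, not called); Tnni3 was listed in wild type alone and the other 8 at 0 as failed estimates. In bulk tissue, a change in the share of cardiomyocytes and a change in these RNAs per cell cannot be told apart. None of 8 endothelial, 6 fibroblast, 5 macrophage and leukocyte or 6 red cell markers was called in any comparison. Over all tested genes 1.89% were called higher and 0.767% lower in the double mutant against wild type. The shares were 0.704% and 0.547% between triple and double mutant, and 1.16% and 0.362% in the triple mutant against wild type. With shares this low, an absence of calls among so few markers says little. The 8 endothelial markers summed to 652, 624 and 555 FPKM in wild type, double and triple mutant. Against wild type, 6 of 8 were negative in the double mutant (median -0.13). In the triple mutant 7 of 8 were (median -0.29, 2 with an unadjusted p under 0.05). Between triple and double mutant 7 of 8 were negative (median -0.22). The 6 tested fibroblast markers were highest in the double mutant as a sum (544, 631 and 513 FPKM in wild type, double and triple mutant). All 6 had positive log2 fold changes in the double mutant against wild type (median 0.18, 2 with an unadjusted p under 0.05). All 6 had negative ones between triple and double mutant (median -0.30, 4 with an unadjusted p under 0.05), and 5 of 6 against wild type in the triple mutant (median -0.08). The 5 tested macrophage and leukocyte markers summed to 29.9, 35.9 and 31.2 FPKM, with 5 of 5 positive in the double mutant (median 0.22) and 4 of 5 negative between triple and double mutant (median -0.15). The red cell markers summed to 374, 417 and 397 FPKM, with 3 of 6 positive in the double mutant. Among 7 smooth muscle and pericyte markers Acta2 was higher and Kcnj8 lower in the triple than in the double mutant. The atrial gene Nppa, which the neonatal ventricle also expresses, was at 919, 505 and 829 FPKM, lower in the double mutant than in both other groups by Cuffdiff's call. The other atrial markers differed in level. Myl7 was at 0.130 and Sln at 0.190 FPKM in wild type, and neither was tested. Myl4, on a locus shared with another gene, was at 7.30, 7.95 and 9.88 FPKM in wild type, double and triple mutant, and was not called. The 4 Y-linked genes measured had median log2 fold changes of 1.53 (double mutant) and 1.05 (triple mutant) against wild type, and of -0.48 between triple and double mutant, the order of groups shown most often by the respiratory genes. Of these 4, Ddx3y and Uty were called higher in the double mutant and Ddx3y in the triple mutant, both against wild type. The part of cell composition and of the sex of the pups in the differences was not tested.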

How the data were processed

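Stranded libraries were made from DNase-treated total RNA of 8 ventricle samples, grouped by the labels' genotype, per the labels' protocols. The submitters' processing notes name mm9, STAR 2.5.2, Cuffdiff 2.2.1, Cufflinks 2.2.1 and CASAVA 1.8. Which gene models and scaling options were chosen is not given in the sources used here. For every gene the authors deposited 1 FPKM value per gene and group. They also deposited, for each of 3 comparisons, a log2 fold change, a test score (Cuffdiff's statistic), a p-value and a q-value. The deposited log2 fold changes matched log2 ratios of FPKM without a pseudocount to within 5.01e-05. The deposited q-values matched a joint Benjamini-Hochberg adjustment of the 3 comparisons to within 5.26e-07, and the lowest p was 5e-05. Genes whose rows carried too many fragments (709) were treated as missing. Depth per sample is not held in these files, so no interval or detection limit is given.

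Since only group values are listed, nothing was refitted, and Cuffdiff's q under 0.05 was the call. Genes the authors marked as significant had q-values up to 0.0999, so the call used here is stricter than their mark. Values named in full are the genes called, the 3 largest changes of each comparison and the c subunit paralogues; of other lists, the genes called and the 2 highest. The deposited p-values were more extreme than the statistic read as a normal deviate (median ratio 1.76 on the z scale). Read that way, 9, 4 and 4 of all genes were called in double mutant against wild type, triple against double and triple against wild type. Alternatives covered the adjustment, the threshold, a minimum of 5 FPKM, a pseudocount of 1, scaling, length bins and shared loci. The normal deviate, leaving out genes with copies, and length bins or equal sums for complexes and direction counts were added after seeing the data. The adjustment was tested on simulated data, and the length bins were not. Lengths and copies came from GENCODE M21 (BLAST 2.17.0), promoters from RefSeq, tables and statistics from Python 3.11.15 with pandas 2.3.3. The genes and lists were chosen with earlier results of these data known.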

Additional observations from a re-analysis of the deposited data

How the results depend on the processing

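Of 108 recomputed values, 13 differed from the reported one by more than 1.5 times, in direction or in their side of the threshold. With Cuffdiff's statistic read as a normal deviate, the genes called numbered 0 in place of 4 (double mutant against wild type, higher) and 0 in place of 1 (triple against double mutant, lower); q was then, against wild type, 0.139 for Atp5j2 and at least 0.920 for Uqcr10, Uqcr11 and Uqcrb, and 0.9999 for Atp5j2 between triple and double mutant. At q under 0.1 the triple mutant against wild type gave 1 gene (Uqcrb). Complex II had medians of -0.0191 (triple mutant against wild type) and 0.122 (double mutant against wild type) without shared loci, and 0.0518 in the first of these when centred by length. The synthase median of triple mutant against wild type was 0.117 when centred by length, and the median of the 26 tested subunit genes between triple and double mutant was -0.0752 with equal sums of FPKM. The cause of these shifts was not tested. No paired analysis was possible because the table lists 1 value per group; leaving out single replicates was not run for the same reason. Depth cannot be read from FPKM.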
